A study of Homo sapiens with 8 samples.

Results

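The Ago2-bound (immunoprecipitated, IP) RNA of ST486 cells with the empty vector (EV-ST486) was compared with the total (T) RNA of the same cells, to see which transcripts sat on Ago2 when no miR-155 was added. ST486 is an established Burkitt lymphoma (BL) cell line, and the cells had been transduced with the empty retroviral MXW-PGK-IRES-GFP vector and sorted as GFP+. The comparison rests on 4 of the 8 channels of the series, which lie on 2 of its 4 arrays. The other 4 channels hold the total and IP RNA of ST486 cells transduced with a construct for ectopic miR-155 (miR-155-ST486), which are GFP+ cells of the same line. The study's methods treat the Cy3 and Cy5 labellings of a fraction as replicates of 1 sample, so they are taken here as technical repeats, n = 1 per fraction, and no test between the fractions can be made. In one orientation the total RNA carried Cy3 and the IP RNA Cy5, in the other the dyes were exchanged. Every IP/T ratio below is the antilog of the mean log2 ratio of both orientations, and the 2 values in parentheses behind it are those of the orientations, the one with total RNA in Cy3 first. The IP of the negative control antibody was not analysed here, so a ratio describes what the anti-Ago2 IP held relative to the total RNA. Each channel had been scaled to the same distribution, so a ratio is relative to the other transcripts. As bulk RNA was measured, transcripts in more cells and more RNA per cell cannot be told apart.

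Ago2 is a member of the Argonaute family, whose proteins hold a miRNA and, guided by it, bind transcripts, usually through the seed, bases 2 to 8 of the miRNA, and a matching site in the 3'UTR. Transcripts held in this way are translated less and decay faster. A ratio of IP to total RNA above the median of all genes marks transcripts of which the anti-Ago2 IP held a higher proportion than of the typical transcript. Burkitt lymphomas carry a translocated MYC gene, and MYC drives the polycistronic miR-17 cluster, whose members miR-17, miR-18a, miR-19a, miR-20a, miR-19b and miR-92a hold back cell cycle inhibitors, pro-apoptotic genes and TGF-beta signalling. No miRNA was measured on these arrays.

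The miRNAs whose known targets carry the results below are shown from 5' to 3' as RefSeq lists them (GRCh38.p14), with the seed in capitals, so that the families that read the same sites can be seen. miR-17-5p, miR-20a-5p and miR-106b-5p share 1 seed, which pairs with the site GCACUUU in a target.
miR-17-5p: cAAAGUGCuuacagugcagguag
miR-20a-5p: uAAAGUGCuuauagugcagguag
miR-106b-5p: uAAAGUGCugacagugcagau
miR-18a-5p comes from the same cluster and has a related but different seed, with the site GCACCUU.
miR-18a-5p: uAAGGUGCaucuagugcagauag
miR-19a-3p and miR-19b-3p share a seed with the site UUUGCAC, and miR-25-3p and miR-92a-3p share a seed with the site GUGCAAU.
miR-19a-3p: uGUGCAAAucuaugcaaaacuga
miR-19b-3p: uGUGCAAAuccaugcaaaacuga
miR-25-3p: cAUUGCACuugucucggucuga
miR-92a-3p: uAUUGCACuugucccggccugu
let-7a-5p and miR-98-5p share a seed, as do miR-15a-5p and miR-16-5p, both being families of B cells that hold back growth genes.
let-7a-5p: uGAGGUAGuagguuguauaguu
miR-98-5p: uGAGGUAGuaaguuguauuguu
miR-15a-5p: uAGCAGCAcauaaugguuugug
miR-16-5p: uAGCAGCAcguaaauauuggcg
miR-155-5p, which the empty vector does not add, and the liver miRNA miR-122-5p served as comparisons.
miR-155-5p: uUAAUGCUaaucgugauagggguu
miR-122-5p: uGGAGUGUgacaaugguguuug

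The cells carried the markers of their label. Of 9 B cell markers on the array, 7 were detected in both labellings of the total RNA, as were 6 of 9 markers of germinal centre B cells and Burkitt lymphoma, against 2 of 10 T cell markers, none of 8 monocyte markers and 1 of 9 epithelial markers. PAX5, which sets B cell identity, was detected in neither labelling, and the T cell markers detected were CD4 and CD8A. The 7 B cell markers with a value were spread around the median of all genes. CD79A, a signal chain of the B cell receptor, had an IP/T of 1.06 (0.931 and 1.20) and BLK, a B cell Src kinase, one of 0.869 (0.685 and 1.1). VPREB3, a surrogate light chain protein, had 0.925 (0.736 and 1.16) and MS4A1, which encodes CD20, 0.595 (0.438 and 0.807). CD79B, the partner of CD79A, was lowest at 0.464 (0.397 and 0.542), and EBF1, an early B cell factor, highest at 2.06 (2.14 and 1.99). Among the control genes GAPDH had 0.648 (0.502 and 0.837), B2M 1.80 (1.76 and 1.84) and ACTB 1.14 (0.945 and 1.38), and the 4 ACTB probes ranged from 0.712 to 1.87. GAPDH thus lay below 1 in both orientations and B2M above it, while ACTB lay on either side of 1.

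Over the 14453 probes with a deposited value, 1795 had an IP/T of at least 2 in EV-ST486, which is 12.4%, and 1447 had an IP/T of at most 0.5, which is 10.0%. Below, transcripts past these limits are called enriched and depleted, as descriptions of these 2 RNA samples. The tails were unequal. 659 probes were at least 4-fold higher in the IP fraction and 239 at least 8-fold, whereas 28 were at least 4-fold lower and none 8-fold lower. The highest probe reached an IP/T of 58.1. The probes with a RefSeq name gave 7925 genes, of which 1063 (13.4%) were enriched and 572 (7.22%) depleted. A gene value is the mean of its probes, which could differ. Of 1959 genes with at least 2 probes, 140 had every probe at an IP/T of at least 2. Another 193 had a probe at 2 or higher and a probe under 2. The total RNA of 874 enriched genes was well above background in both labellings, that of 184 in 1 and that of 5 in neither. Among the genes named below, the total RNA of ARID4B, BAMBI, BMPR2, CCNE2, CDC25C, CISH, EBF1, EGR2, FAS, FBXO10, FOXN2, IFIT5, IRF9, NFKBIZ, PANK1, RAB12, RAB23, SLC16A6, SMURF1, SP2, TUBA8, USP12, USP31, VAMP3, ZBTB4, ZNF124, ZNF823 and ZNFX1 was well above background in 1 labelling, so that the ratio of each rests on a dim total signal. The same held for the IP RNA of AKT1, BCL2L1, CNOT3, FOXO3, HSD17B7, HSPA4L, IFI6, NFKBIB, NSDHL, PANK1, PFKL, PTBP1, RNF166, RNF185, TRIM25, TUBB4A, VMP1, ZBTB47 and ZNF263. In both orientations alike, 853 genes (10.8%) were enriched and 282 (3.56%) depleted. Higher values thus made up 65.0% of the called genes and 55.4% of the called probes, and with background correction by normexp and loess within each array these shares were 88.8% and 76.7%, with 617 genes enriched and 78 depleted. That processing moved the log2 median of all genes from -0.12 to 0.01, so each list is set against the median of all genes. With total RNA in Cy3 alone, 53.5% of the called genes and 48.9% of the called probes were higher, so that among probes the lower ones outnumbered the higher. A limit of 1.5-fold turned the balance of probes too, with 2821 higher and 3751 lower. Across genes, which are not independent replicates, the log2 ratios of the orientations correlated with r = 0.849, and the plot of one orientation against the other shows the enriched genes as a long arm near the diagonal.

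**Figure D1:**
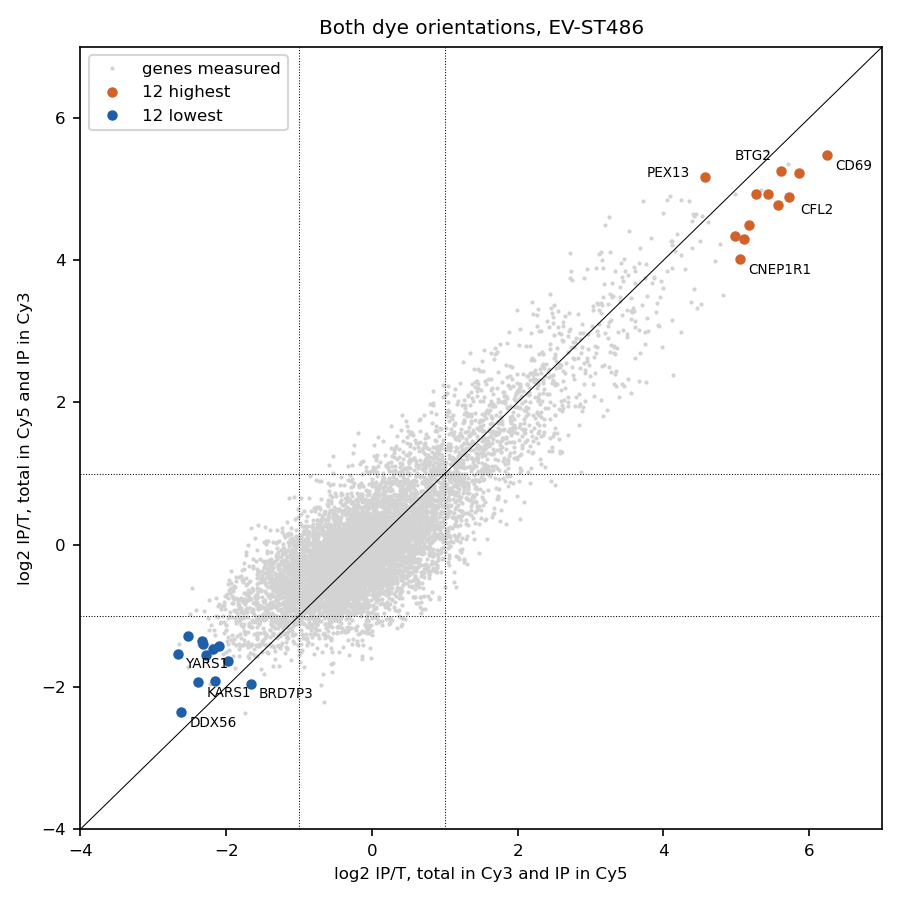
Each grey point is 1 of the 7925 genes in EV-ST486, with the log2 IP/T with total RNA in Cy3 on the x axis and in Cy5 on the y axis. Dotted lines mark 2-fold, the solid line equal values, and the coloured points the 12 highest and 12 lowest genes, of which CD69 is highest with ratios of 76.0 and 44.4.

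The most enriched transcript was CD69, an early activation antigen of lymphocytes. Its log2 signals were 7.89 and 8.23 in the total channels and 13.70 and 14.14 in the IP channels, each pair given as Cy3 and Cy5, for an IP/T of 58.1 (76.0 and 44.4). DNAJB9, an endoplasmic reticulum co-chaperone, stood at 10.40 and 10.18 in the total channels and 15.41 and 16.27 in the IP channels, an IP/T of 46.8 (58.3 and 37.5). BTG2, an antiproliferative gene that recruits the deadenylase, followed with 10.21 and 10.31 in the total channels and 15.57 and 15.83 in the IP channels, an IP/T of 43.3 (48.9 and 38.3). In all 3 genes both IP channels lay above both total channels by more than 4 log2 units, and the channels of a fraction lay within 1 unit of each other.

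CFL2, which encodes the actin-severing protein cofilin 2, came next with an IP/T of 39.6 (53.1 and 29.5), and its 2 probes gave 55.0 and 28.5. FAM222B had an IP/T of 36.3 (43.3 and 30.5), CCNJ, a cyclin, 36.1 (47.5 and 27.4), and BOD1, a regulator of chromosome biorientation, 34.3 (38.8 and 30.4). The next of the 12 highest were PEX13, part of the peroxisomal import machinery, at 29.2 (23.8 and 35.9) and CDC37L1, an HSP90 co-chaperone, at 28.6 (36.2 and 22.6). FAM135A had 26.0 (34.3 and 19.7), MMD 25.3 (31.5 and 20.3) and CNEP1R1, a subunit of a nuclear envelope phosphatase, 23.2 (33.2 and 16.2). Of these 12 genes, CD69, BTG2 and CFL2 were in a list of known miRNA targets, those of miR-181, of miR-21 and miR-25/32/92a, and of miR-142-3p. The 12 genes were chosen as those with the highest mean, among genes past 2-fold on every probe in both orientations and detected in all 4 EV channels, which 586 genes were.

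At the other end, 176 genes were past 2-fold lower by the same rule. DDX56, a nucleolar RNA helicase of ribosome assembly, was lowest, with log2 signals of 10.18 and 10.31 in the total channels and 7.96 and 7.56 in the IP channels, an IP/T of 0.179 (0.163 and 0.196). The next 2 were the tRNA synthetases KARS1, which charges lysine, at 0.224 (0.192 and 0.262), and YARS1, which charges tyrosine, at 0.234 (0.158 and 0.345). CCDC69 had 0.244 (0.224 and 0.265), POLD2, a subunit of DNA polymerase delta, 0.266 (0.207 and 0.342), and DBNL, an actin-binding adaptor, 0.267 (0.173 and 0.411). UBE2L6, the conjugating enzyme of the ubiquitin-like modifier ISG15, had 0.277 (0.201 and 0.381), ARHGAP27 0.279 (0.199 and 0.392) and AP2M1, the clathrin adaptor subunit that reads cargo, 0.282 (0.220 and 0.361). MIF4GD had 0.285 (0.254 and 0.321), the transcript named BRD7P3, a pseudogene copy that its probe may not tell from its parent gene, 0.285 (0.316 and 0.258), and TRAPPC3, a vesicle tethering subunit, 0.296 (0.234 and 0.373). In 11 of these 12 genes the ratio was lower with total RNA in Cy3 than in Cy5, BRD7P3 being the exception. The 12 highest genes likewise had the more extreme ratio with total RNA in Cy3, except for PEX13. Over all genes, 988 had an IP/T of at most 0.5 with total RNA in Cy3 alone and 491 with total RNA in Cy5 alone. At least 2 was reached by 1135 and 1096 genes. None of the 12 was in a list of known miRNA targets, but 7673 of all 7925 genes were in no such list either.

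**Figure D2:**
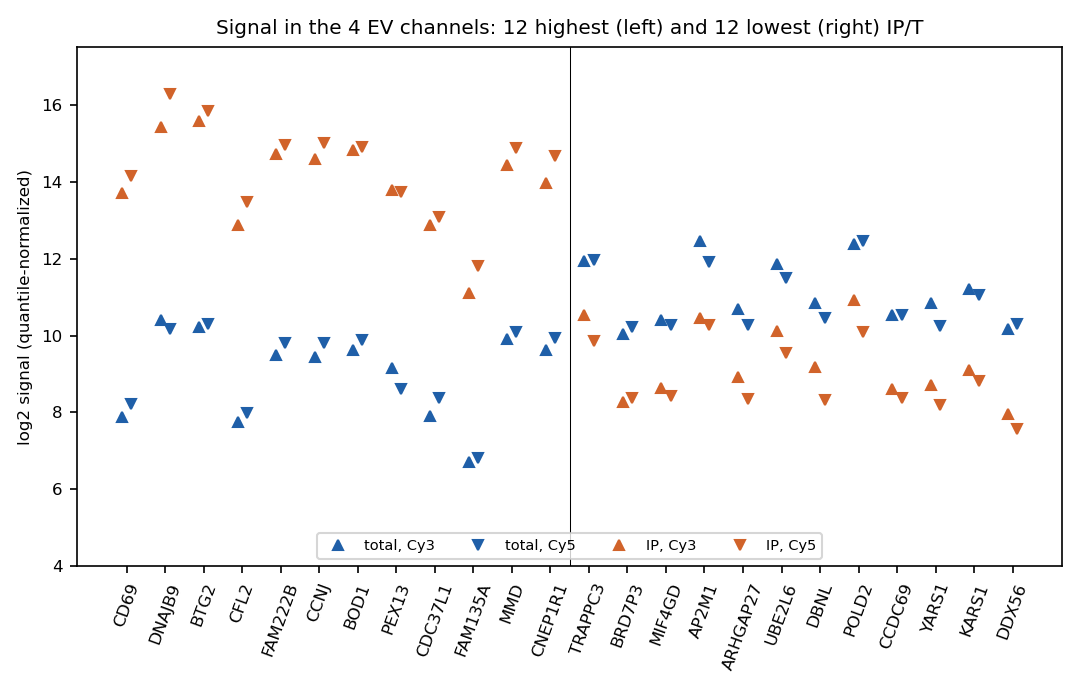
Quantile-normalized log2 signals (y axis) of the 12 genes with the highest IP/T (left of the line) and the 12 with the lowest (right) in the 4 EV channels. Triangles up are Cy3 and triangles down Cy5, with total RNA in blue and IP RNA in orange. The genes were chosen as past 2-fold in both orientations, so the separation of the 2 fractions follows largely from that choice. The gap of the enriched genes is wider than that of the depleted ones.

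Known targets of the miR-17 cluster families were mostly enriched, and none was depleted. The target lists were drawn up with earlier results of these data known, so these counts describe the lists and do not test them. Of 30 measured targets of miR-17, miR-20a and miR-106a/b, 19 were enriched (63.3%, against 13.4% of all genes), 0 were depleted, and 29 lay above the median of all genes. Their median IP/T was 2.67 (3.0 and 2.61), against 0.923 (0.924 and 0.936) over all genes. Of the 19 enriched members, 18 passed 2-fold in both orientations.

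ZNFX1, an antiviral helicase, was the highest target of this family, with log2 signals of 7.34 and 6.71 in the total channels and 11.57 and 11.58 in the IP channels and an IP/T of 23.3 (18.8 and 28.9). ATG16L1, which builds autophagosomes, had 8.55 and 8.40 in the total channels and 12.67 and 12.67 in the IP channels, an IP/T of 18.3 (17.3 and 19.4). ZBTB4, a transcriptional repressor, had 15.5 (16.6 and 14.5), and TXNIP, which restrains glucose uptake, 11.2 (9.84 and 12.8). In each of them the IP channels lay above the total channels by more than 3 log2 units. TGFBR2, the type II receptor through which TGF-beta arrests B cells, had log2 signals of 9.77 and 9.5 in the total channels and 12.89 and 12.87 in the IP channels and an IP/T of 9.47 (8.56 and 10.47). DUSP2, a phosphatase that shuts off MAP kinases, had 10.0 (7.49 and 13.4), with 8.52 and 11.8 on its 2 probes.

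The other targets of the family, cell cycle genes first, spanned a wide range. CDKN1A, the inhibitor p21 and the classic target of these miRNAs, had log2 signals of 8.34 and 8.36 in the total channels and 10.54 and 9.98 in the IP channels, an IP/T of 3.75 (3.12 and 4.51). E2F3 had 6.41 (7.93 and 5.19) and E2F2 2.37 (2.74 and 2.05). The stress kinase MAP3K5 had 8.12 (13.6 and 4.86), the stress ligand MICA 8.34 (10.0 and 6.94), the acetyltransferase KAT2B 7.04 (6.48 and 7.65) and the chromatin protein ARID4B 4.78 (4.43 and 5.17). TP53INP1, a p53-induced regulator of cell death, had 3.38 (3.82 and 2.99), the coactivator NCOA3 3.20 (3.77 and 2.71), the autophagy kinase ULK1 2.69 (2.88 and 2.52), PKD1 2.64 (3.35 and 2.08) and VEGFA 2.21 (2.22 and 2.20). LIMK1, a kinase of actin turnover, was among the members that were not enriched, at 1.05 (1.46 and 0.757).

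The targets of the other members of the cluster had medians of 4.02 (4.11 and 3.93) for miR-19a/b, 2.53 (2.57 and 3.37) for miR-25/32/92a and 1.53 (2.24 and 1.21) for miR-18a. For miR-19a/b 10 of 18 were enriched (55.6%) and none depleted, but the 6 targets in no other miRNA list had a median of 1.08, with 2 enriched. The list was split, in that 10 genes lay at 3.38 (TP53INP1) or higher and the other 8 at 1.59 (PRKAA1) or lower. SOCS1, a brake on cytokine signalling, was highest in it, with log2 signals of 8.71 and 9.25 in the total channels and 13.33 and 12.95 in the IP channels and an IP/T of 17.9 (18.9 and 16.9). MYLIP, a ubiquitin ligase for the LDL receptor, had 14.4 (9.21 and 22.6), BAMBI, a decoy receptor for TGF-beta, 9.26 (8.69 and 9.87), CBX7, a polycomb protein, 8.62 (8.63 and 8.61) and TNFAIP3, the NF-kappaB inhibitor A20, 7.42 (10.2 and 5.42). BMPR2, a BMP receptor, had a measured ratio of 0.604 (0.592 and 0.615), but its IP signal was not well above background in either labelling, so its IP/T is only bounded, at least 1.05-fold lower in the IP.

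For miR-25/32/92a 9 of 14 were enriched (64.3%, against 13.4% of all genes), 6 of them in both orientations, led by BTG2 and MYLIP. FBXW7, a ubiquitin ligase subunit that turns over MYC and cyclin E, had 9.27 (11.3 and 7.60), RECK, an inhibitor of metalloproteases, 7.23 (9.73 and 5.37), KLF2 4.06 (3.89 and 4.24) and TECPR2 3.72 (3.32 and 4.15). For miR-18a 4 of 10 were enriched and none depleted, the 3 targets in no other list had a median of 2.61, and its orientations lay further apart than those of the other 3 families. DICER1, which cuts pre-miRNAs, had 7.06 (6.93 and 7.19) and the glucocorticoid receptor NR3C1 3.10 (3.25 and 2.96). The 4 families together had 57 measured targets, of which 35 were enriched (61.4%) and 0 depleted. Several targets are shared. BCL2L11 and SMAD4 are each counted in 3 of the 4 lists, and 14 of the 30 miR-17/20a targets are in no other miRNA list. Those 14 had a median IP/T of 2.94 (3.23 and 2.88), and 10 were enriched.

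**Figure D3:**
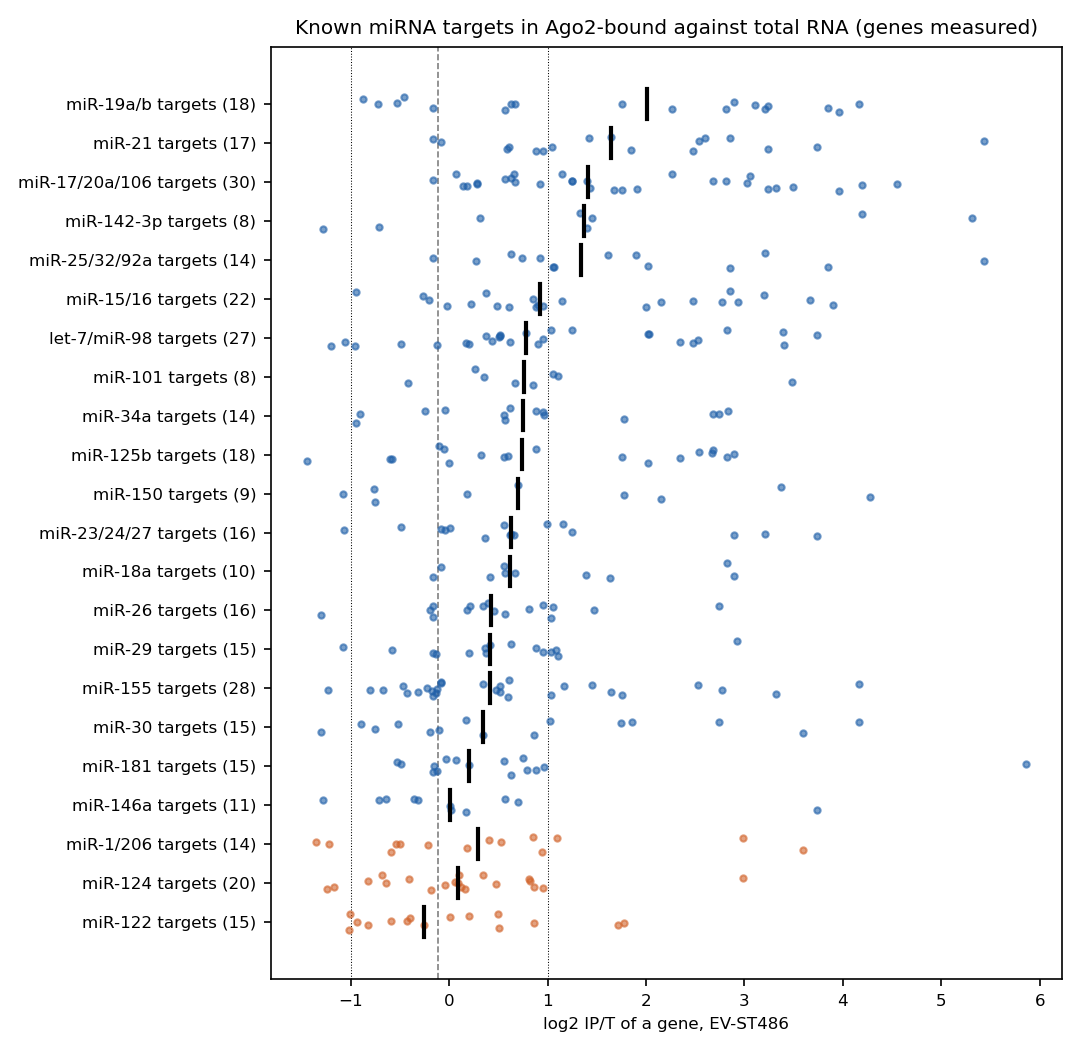
Log2 IP/T in EV-ST486 (x axis) of every measured gene in lists of known targets of miRNAs common in B cells (blue) and of liver, brain and muscle miRNAs (orange), with the list median as a black bar. The dashed line is the median of all 7925 genes, the dotted lines mark 2-fold, and numbers behind the names are genes measured. The miR-19a/b, miR-21 and miR-17/20a lists have the highest medians and the miR-122 list the lowest.

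Among the targets of other miRNAs that B cells are known to carry, the list medians ranged from 1.0 to 3.13. Of the 27 let-7/miR-98 targets 11 were enriched (40.7%, against 13.4% of all genes) and 2 depleted, with a median IP/T of 1.72 (1.80 and 1.74). FAS, the death receptor, had 13.3 (11.0 and 16.1), HIC2 10.53 (11.3 and 9.82), the homeobox factor PBX3 10.53 (9.61 and 11.54), and IGF2BP3, an oncofetal RNA-binding protein, 5.78 (4.07 and 8.21). The cell cycle phosphatase CDC25A had 5.58 (4.5 and 6.93), the AT-rich DNA binders ARID3B 5.09 (6.46 and 4.01) and ARID3A 4.06 (2.54 and 6.47), and PLAGL2 4.09 (4.41 and 3.79). MAP4K4 at 0.479 (0.335 and 0.685) and the survival gene BCL2L1 at 0.435 (0.344 and 0.551) were lowest. Those 2 were the depleted members, neither of them in both orientations.

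Of the 22 miR-15/16 targets 10 were enriched (45.5%, against 13.4% of all genes), all in both orientations. None was depleted (against 7.22%), and the median was 1.90 (2.29 and 2.03). CCNE1, cyclin E1, which starts S phase, had log2 signals of 13.30 and 14.28 in the total channels and 17.62 and 17.77 in the IP channels, an IP/T of 14.9 (22.1 and 10.1). E2F7, which represses other E2F targets, had 12.7 (11.1 and 14.5), the ubiquitin ligase SIAH1 9.17 (8.81 and 9.55), SMURF1, which degrades SMADs, 7.64 (8.53 and 6.85), WEE1, which holds cells before mitosis, 6.84 (5.28 and 8.87), and CDC27, of the anaphase-promoting complex, 3.99 (4.33 and 3.68). MYB, a factor of B cell progenitors and of many lymphomas, had 4.46 (4.69 and 4.23). CCND3, cyclin D3, was not enriched, at 0.831 (0.860 and 0.803), nor was the kinase MAP2K1, at 0.519 (0.577 and 0.468).

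Of all genes 13.4% were enriched and 7.22% depleted, the shares to set beside the next counts. miR-21 targets had a median of 3.13 (3.31 and 3.08), with 11 of 17 enriched (64.7%) and none depleted. BTG2, TGFBR2, RECK, FAS and CDC25A in this list are also on other lists. Beside these, NFIB had 6.07 (5.46 and 6.75), YOD1, a deubiquitinating enzyme, 5.81 (5.97 and 5.65), DUSP8 3.58 (4.16 and 3.09) and PPARA 2.68 (2.34 and 3.08). The miR-142-3p list, for a miRNA of all blood cells, had 8 measured members, of which 5 were enriched, among them ROCK2, a kinase of cell shape, at 2.51 (2.84 and 2.21), and TAB2, an adaptor of innate signalling, at 2.73 (2.94 and 2.54). IRAK1, another such adaptor kinase and a target of miR-146a, was depleted at 0.410 (0.287 and 0.585), and the miR-146a list had 1 enriched gene of 11, which was FAS, and a median of 1.0 (0.825 and 1.23). The miR-150 list, with 4 of 9 enriched and 1 depleted, held EGR2 at 19.3 (18.1 and 20.6), MYBL1, a germinal centre factor, at 10.3 (11.8 and 9.05), and FOXP1 at 3.42 (3.38 and 3.46), and also AKT2 at 0.472 (0.532 and 0.419).

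The shares of all genes to set beside the counts that follow are 13.4% enriched and 7.22% depleted. The miR-125b list had 8 of 18 enriched (44.4%), 1 depleted and a median of 1.67 (2.04 and 1.46), but its 9 genes in no other miRNA list had a median of 0.997, with 2 enriched. BCL3 had 6.37 (4.80 and 8.45) and CDC25C 5.79 (6.17 and 5.44), and PPP1CA, a catalytic phosphatase subunit and the depleted member, 0.366 (0.281 and 0.477). Of the miR-34a targets 4 of 14 were enriched (28.6%) and none depleted, and the median of 1.68 was 1.12 over the 4 genes in no other list. In that list PPP1R10 had 7.12 (7.36 and 6.88) and YY1 0.533 (0.569 and 0.499). In the miR-23/24/27 list 5 of 16 were enriched (31.2%) and 1 depleted, with FAS, FBXW7 and TNFAIP3 among the enriched ones. CCNE2, cyclin E2, shared by the miR-26, miR-30 and miR-34a lists, had 6.70 (5.40 and 8.31), and ZFP36, which speeds the decay of AU-rich transcripts, in the miR-29 list, had 7.59 (5.88 and 9.79). The miR-26, miR-29 and miR-30 lists had medians of 1.34, 1.33 and 1.27, with 4 of 16, 4 of 15 and 6 of 15 genes enriched and 1 depleted in each. Of these enriched genes 2, 1 and 5 passed 2-fold in both orientations. The depleted gene of the miR-26 and miR-30 lists was MTDH, at 0.405 (0.447 and 0.366), and that of the miR-29 list AKT2, a kinase, at 0.472 (0.532 and 0.419). The 3 miR-29 targets in no other list had a median of 2.12. In the miR-101 list 3 of 8 were enriched (37.5%), 1 of them in both orientations, and none depleted. CPEB1, a 3'UTR-binding regulator, had 11.2 (13.6 and 9.15). The miR-181 list had 1 enriched gene of 15 (6.67%), which was CD69, the highest of all genes, and no depleted one.

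Pooled over the 18 lists of B cell miRNAs other than miR-155, 193 genes were measured, of which 80 (41.5%) were enriched and 7 (3.63%) depleted, with a median IP/T of 1.59 (1.77 and 1.60). Genes in 1 such list had a median of 1.49 (1.68 and 1.55) (54 of 138 enriched). Genes in 2 lists had 1.59 (1.72 and 1.43) (15 of 37), and genes in 3 or more had 2.83 (3.24 and 2.86) (11 of 18, none depleted). The 7673 genes in no list had 0.912 (0.914 and 0.930), and 12.7% of them were enriched. Most enriched genes, 975 of 1063, were in none of the lists, which hold only part of all targets.

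Targets of miRNAs that are characteristic of other tissues served as a comparison. For miR-122 of liver, 2 of 15 targets were enriched (13.3%, against 13.4% of all genes) and 2 depleted (13.3%, against 7.22%), with a median IP/T of 0.835 (0.840 and 0.873), which turned to the other side of 1 over the genes detected in all 4 EV channels (log2 median 0.20 in place of -0.26). SLC7A1, the cationic amino acid transporter, had 3.27 (4.18 and 2.57) and FOXP1, also a miR-34a and miR-150 target, was the other enriched one, whereas ALDOA, a glycolytic enzyme, had 0.497 (0.486 and 0.507). For miR-124 of brain, 1 of 20 targets was enriched and 2 were depleted. The enriched one was VAMP3, a vesicle SNARE, at 7.94 (5.46 and 11.53), and PTBP1, a splicing repressor, was the lowest, at 0.423 (0.445 and 0.402). For miR-1 and miR-206 of muscle, TWF1, an actin-binding protein, had 12.1 (10.8 and 13.5) and the kinase PIM1 7.93 (9.59 and 6.56), among 3 of 14 enriched (21.4%), and PGD, at 0.391 (0.284 and 0.538), and TAGLN2, at 0.430 (0.315 and 0.586), were the 2 depleted (14.3%). The 43 genes in these 3 lists and no other had a median of 1.06 (0.992 and 1.02), 5 (11.6%) being enriched and 6 depleted.

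Transcripts of the miRNA pathway itself differed in their IP/T. 8 of 22 were enriched (36.4%, against 13.4% of all genes) and none depleted, with a median of 1.51 (1.67 and 1.56). TNRC6A, the GW182 scaffold that Argonaute binds to silence a transcript, had log2 signals of 7.68 and 7.89 in the total channels and 11.17 and 11.58 in the IP channels, an IP/T of 12 (15.0 and 9.68), and its paralogue TNRC6B 3.98 (4.25 and 3.73), with 3.06 to 5.90 over 3 probes. Of the processing enzymes, DICER1 had 7.06 (6.93 and 7.19), its partner TARBP2 2.68 (2.20 and 3.27) and DROSHA 2.76 (3.32 and 2.29), whereas DGCR8, the partner of DROSHA, had 0.880 (0.654 and 1.18) and the Dicer partner PRKRA 0.660 (0.843 and 0.517). The exporter XPO5 had 1.46 (1.45 and 1.47) and its cofactor RAN 0.813 (0.923 and 0.716).

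The Argonautes were not enriched. AGO1 had 1.52 (2.08 and 1.1), AGO2, whose protein the antibody pulled down, 1.08 (1.03 and 1.13), and AGO3 1.23 (1.52 and 0.999). Among the proteins that carry out decay and translational block, TUT4, which uridylates pre-let-7, had 2.77 (3.64 and 2.11), the decapping activator DCP1A 2.09 (1.89 and 2.31) and the cap-binding repressor EIF4E2 2.03 (1.77 and 2.32). The values of LSM14A and of the helicase DDX6 were 1.87 (2.12 and 1.66) and 1.83 (1.61 and 2.08). Those of PATL1, XRN1, EIF4ENIF1, DCP2 and EDC3 lay between 0.860 (EDC3) and 1.5 (PATL1).

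The 13 measured genes that carry a miRNA in an intron or exon had IP/T ratios around that of all genes, as spliced host transcripts. Of them 2 were enriched (15.4%, near the 13.4% of all genes) and 1 depleted (7.69%, near 7.22%). PANK3 had 2.64 (3.23 and 2.15) and NFYC 2.01 (1.80 and 2.25), both enriched, CTDSP1 1.76 (1.34 and 2.30), CTDSP2 1.31 (1.47 and 1.17), and PANK1 1.71 (1.70 and 1.72). MCM7, host of the miR-106b cluster, had 1.33 (1.04 and 1.70), SREBF1 1.32 (1.5 and 1.16) and HUWE1 0.811 (0.847 and 0.777). SREBF2 and SMC4 had 0.660 (0.548 and 0.794) and 0.659 (0.661 and 0.658), COPZ1 0.579 (0.590 and 0.569), VMP1, host of miR-21, 0.515 (0.549 and 0.483) and EVL, host of miR-342, 0.482 (0.448 and 0.519), the last being depleted. The probe of MIR155HG, the host of miR-155, was not detected in total RNA of EV-ST486.

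By function, immediate early genes had the highest median among classes of at least 3 genes. The class of cyclins, CDKs and CDK inhibitors, in which CDC25 phosphatases were counted, came next. Tricarboxylic acid cycle, antigen presentation and ribosomal protein genes had the lowest medians. The classes were chosen with earlier results of these data known. Immediate early genes, which are switched on quickly and have short-lived transcripts, had a median of 3.77 (3.66 and 4.05), with 12 of 17 enriched (70.6%, against 13.4% of all genes) and none depleted. EGR2 had log2 signals of 5.68 and 5.04 in the total channels and 9.41 and 9.86 in the IP channels, an IP/T of 19.3 (18.1 and 20.6), and BTG2 was highest. BTG1, a relative of BTG2, was lowest in the class, at 1.02 (1.0 and 1.05), followed by IER5 at 1.11 (0.919 and 1.34). Of the 17 genes, 8 were in a B cell miRNA target list, and the other 9 had a median of 2.70 with 6 enriched. The log2 median was 1.91, and it was 1.43 over the genes of the class detected in all 4 EV channels and 1.22 with normexp and loess. Both measured SOCS family genes were enriched, SOCS1 as above and CISH at 9.65 (8.85 and 10.51).

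Of the 21 genes in the class of cyclins, CDKs and CDK inhibitors 9 were enriched (42.9%, against 13.4% of all genes) and none was depleted. The median was 1.94 (1.84 and 1.94), and the phosphatases CDC25A, CDC25B and CDC25C were counted in the class. CDKN1B, the inhibitor p27, was highest, with log2 signals of 9.63 and 10.00 in the total channels and 13.59 and 14.06 in the IP channels, an IP/T of 16.1 (21.5 and 12), next to CCNE1. CDC25B, a mitotic phosphatase, was lowest at 0.584 (0.491 and 0.694), below CDKN2D, the inhibitor p19, at 0.794 (0.830 and 0.759). The 11 members in a B cell miRNA target list had a median of 3.75 (6 enriched), and the other 10 one of 1.13 (3 enriched). In the E2F and RB family 5 of 12 were enriched, with E2F5 at 14.0 (16 and 12.3) and E2F7 highest. TFDP2 at 0.391 (0.439 and 0.349) and TFDP1 at 0.571 (0.566 and 0.576) were lowest. Licensing factors of DNA replication held no enriched and no depleted gene among 16, from MCM10 at 0.582 (0.651 and 0.520) and CDC6 at 0.650 (0.651 and 0.648) to MCM5 at 1.08 (0.889 and 1.30) and MCM7.

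Zinc finger proteins of the ZNF and ZFP type, mostly transcriptional repressors, were the largest class. 71 of 231 were enriched (30.7%) and 8 depleted (3.46%, against 7.22% of all genes), with a median of 1.32 (1.43 and 1.26). ZNF823 had log2 signals of 7.11 and 6.73 in the total channels and 11.28 and 11.72 in the IP channels, an IP/T of 23.9 (24.4 and 23.3), and ZNF124 22.7 (27.5 and 18.7), whereas ZNF263 had 0.235 (0.214 and 0.258) and ZNF575 0.337 (0.277 and 0.410). The class was dim, with a median over genes of the mean log2 signal of 8.96 against 9.99 over all genes. When all genes were divided into 3 equal parts by this signal, in the brightest part 14 of 31 zinc finger genes were enriched (45.2%, against 12.3% of all genes there), and in the dimmest part 32 of 121 (26.4%, against 14.3%). Of the 231 genes, 1 was in a B cell miRNA target list. Zinc finger genes share near-identical repeats, so the probes of single members are uncertain.

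ZBTB proteins, another zinc finger group, had 4 of 18 enriched (22.2%, against 13.4% of all genes) and none depleted, with ZBTB4 highest and ZBTB7A, a repressor, at 6.21 (5.45 and 7.07), and with ZBTB24 at 0.791 (1.15 and 0.543) and ZBTB47 at 0.801 (0.870 and 0.738) lowest. Of the Kruppel-like and SP factors 3 of 11 were enriched and none depleted, KLF15 at 4.21 (5.68 and 3.12) next to KLF2, with KLF16 at 0.695 (0.733 and 0.659) and SP2 at 1.04 (0.876 and 1.24) lowest. Germinal centre B cell transcription factors had 6 of 21 enriched, led by MYBL1 and MYB, and none depleted, with IKZF1 at 0.591 (0.689 and 0.507) and SPIB at 0.562 (0.518 and 0.610) lowest. The oncogene MYC itself, named after its values were seen, had an IP/T of 1.54 (1.33 and 1.78). Forkhead factors had 2 enriched and 3 depleted genes of 20, FOXN2 at 3.58 (2.82 and 4.53) and FOXP1 against FOXQ1 at 0.396 (0.283 and 0.555) and FOXO3 at 0.427 (0.258 and 0.708). None of the 3 was depleted in both orientations. Polycomb genes had 7 of 23 enriched and 2 depleted, with CBX7 and PHF1 at 4.75 (4.36 and 5.18) highest and BAP1 at 0.337 (0.249 and 0.456) and RING1 at 0.459 (0.321 and 0.655) lowest.

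In the signalling classes, TGF-beta receptors and SMADs had 5 of 14 enriched (35.7%, against 13.4% of all genes) and none depleted, with a median of 1.45 (1.77 and 1.34), TGFBR2 and BAMBI being highest and SMAD2 at 0.890 (0.875 and 0.906) and BMPR2 lowest. The MAP kinase cascade had 5 of 19 enriched and 2 depleted, neither of the 2 in both orientations. MAP3K5 and MAPK6 at 4.95 (6.03 and 4.07) were highest, and MAPK12, at 0.456 (0.322 and 0.646), and MAP4K4 lowest. Dual specificity phosphatases had 3 of 8 enriched and none depleted, with DUSP15 at 0.540 (0.420 and 0.695) and DUSP11 at 0.809 (0.835 and 0.783) lowest. The NF-kappaB pathway was spread widely, from NFKBIZ at 23.4 (21.8 and 25.2) and BIRC3 at 10.7 (10.6 and 10.8) to MYD88 at 0.320 (0.283 and 0.363) and NFKBIB at 0.388 (0.364 and 0.415), with 7 enriched and 3 depleted of 24.

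B cell receptor signalling, which B cells need to survive, held no enriched gene among 29, with 4 depleted and a median of 0.784 (0.770 and 0.772). AKT1, a kinase below PI3K, had log2 signals of 8.85 and 8.0 in the total channels and 6.60 and 6.19 in the IP channels, an IP/T of 0.245 (0.159 and 0.379), and BTK, the kinase behind the receptor, 0.388 (0.303 and 0.496). BCL10, which links the receptor to NF-kappaB, was highest at 1.97 (2.19 and 1.77), and the kinase LYN had 1.20 (1.22 and 1.17). Of interferon-stimulated genes 3 of 17 were enriched (17.6%, near the 13.4% of all genes) and none depleted, IRF9 at 24.8 (30.7 and 20) and IFIT5 at 12 (10.9 and 13.1) being highest, and USP18 at 0.528 (0.512 and 0.545) and IFI6 at 0.585 (0.610 and 0.562) lowest. Of 17 BCL2 family genes 2 were enriched, BCL2L12 at 4.23 (3.83 and 4.68) and MCL1 at 2.16 (1.95 and 2.38). The 2 MCL1 probes gave 1.64 and 2.83. The 2 depleted genes were the death effector BAX at 0.304 (0.211 and 0.437) and BCL2L1.

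**Figure D4:**
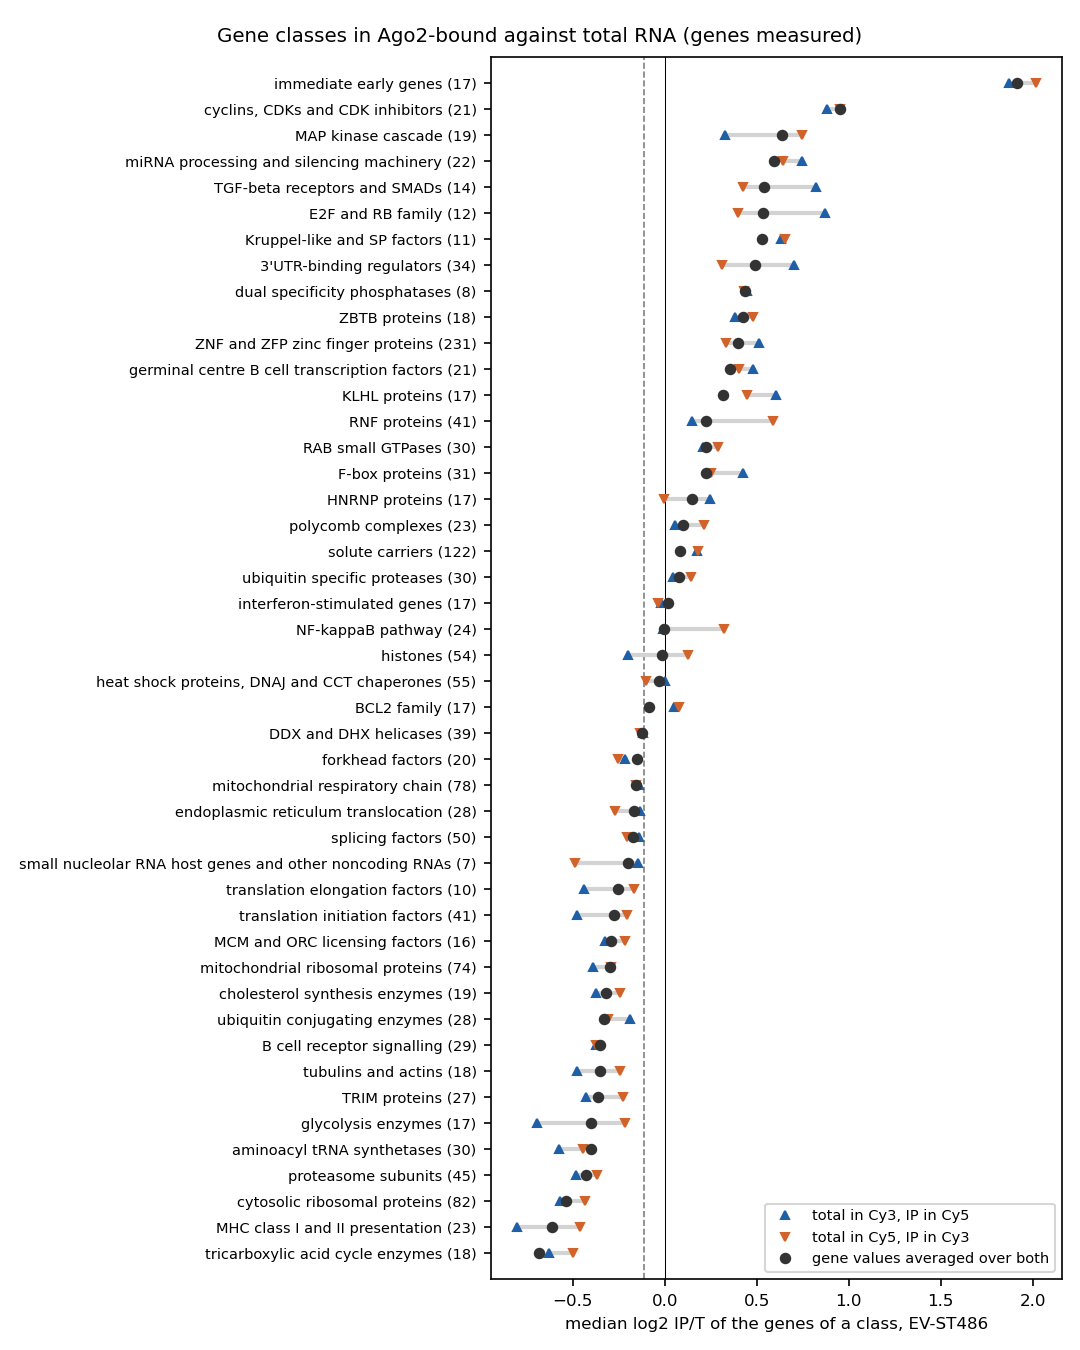
Median log2 IP/T in EV-ST486 (x axis) of each gene class with at least 3 measured genes, black for the values averaged over the orientations, blue and orange for each orientation alone, joined by a grey bar. Numbers behind the class names are genes measured and the dashed line is the median of all genes. Immediate early genes lie highest, at 1.91, and tricarboxylic acid cycle enzymes lowest, at -0.69.

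The classes of the translation machinery had medians below that of all genes. Of 82 cytosolic ribosomal protein genes 3 were enriched (3.66%) and 13 depleted (15.9%, against 7.22% of all genes), the median was 0.689 (0.675 and 0.741), and 22 lay above the median of all genes. RPL12 had log2 signals of 16.38 and 16.49 in the total channels and 14.95 and 14.75 in the IP channels, an IP/T of 0.333 (0.322 and 0.344), and RPL29 0.441 (0.394 and 0.493). RPLP0, the stalk protein, departed from its class, with log2 signals of 16.75 and 16.48 in the total channels and 19.32 and 18.61 in the IP channels, an IP/T of 5.09 (3.62 and 7.16) and 4.36, 5.67 and 5.34 on its 3 probes, as did RPL36A, at 3.85 (5.11 and 2.91). The class had a median over genes of the mean log2 signal of 16.30, and 80 of the 82 were in the brightest of the 3 parts, whose median IP/T was 0.916. Ribosomal protein genes have many processed copies that probes may not tell apart.

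Mitochondrial ribosomal proteins had a median of 0.812 (0.764 and 0.818). Of 74 genes 4 were enriched (5.41%, against 13.4% of all genes) and 6 depleted (8.11%, against 7.22%). MRPL20 was far above the others at 8.91 (9.41 and 8.44), followed by MRPL17 at 2.78 (2.17 and 3.56), and MRPL23 at 0.442 (0.471 and 0.415) and MRPS5 at 0.452 (0.462 and 0.442) were lowest. Translation elongation factors held no enriched gene of 10: EEF2, which moves the ribosome along, had 0.364 (0.248 and 0.536) and EEF1A1, which delivers tRNAs, 0.489 (0.50 and 0.479) with 0.345 to 0.714 over 4 probes, while EEF1G had 1.05 (0.823 and 1.35) and GFM2 0.977 (1.23 and 0.778). Initiation factors had 3 enriched and 4 depleted of 41, EIF4A2, an RNA helicase of the cap-binding complex, at 3.77 (4.0 and 3.55) and EIF1B at 2.91 (3.42 and 2.48) against EIF2D at 0.361 (0.346 and 0.376) and the scaffold EIF4G1 at 0.426 (0.383 and 0.474). The tRNA synthetases were split within the class. KARS1 and YARS1 were lowest, RARS1, which charges arginine, had log2 signals of 12.80 and 12.66 in the total channels and 16.04 and 16.04 in the IP channels, an IP/T of 9.91 (9.44 and 10.4), its mitochondrial counterpart RARS2 had 5.74 (5.05 and 6.53), and the median of the 30 genes was 0.756 (0.672 and 0.734).

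Tricarboxylic acid cycle and glycolysis genes had low medians too. Of 18 tricarboxylic acid cycle enzymes none was enriched (against 13.4% of all genes). The depleted ones were 3 (16.7%, against 7.22%), 1 of them in both orientations. Among the 3 were IDH3B at 0.297 (0.25 and 0.352) and SUCLG1 at 0.455 (0.292 and 0.711). The median of the class was 0.622 (0.647 and 0.709), with FH at 1.22 (1.03 and 1.44) and DLAT at 1.22 (1.26 and 1.19) highest. Of 17 glycolysis enzymes, PFKP, the platelet phosphofructokinase, was enriched at 2.78 (2.60 and 2.98), and PFKM had 1.44 (1.49 and 1.39). PFKL, at 0.464 (0.409 and 0.528), and ALDOA were the depleted ones, neither of them in both orientations. The 3 phosphofructokinase genes thus spanned the range of the class. The respiratory chain was near the median of all genes at 0.898 (0.906 and 0.897), with NDUFC1 at 3.49 (3.91 and 3.12) and NDUFV3 at 1.92 (1.76 and 2.09) highest and the ATP synthase genes ATP5F1C at 0.367 (0.337 and 0.40) and ATP5F1B at 0.425 (0.338 and 0.534) lowest. Cholesterol synthesis enzymes ranged from NSDHL at 0.471 (0.510 and 0.435) and HSD17B7 at 0.534 (0.520 and 0.549) to LBR at 1.72 (1.73 and 1.70) and MSMO1, at 3.20 (5.50 and 1.86), the highest of the 19 but with unequal orientations.

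Proteasome subunits had a median of 0.744 (0.716 and 0.775), with 1 of 45 enriched, PSMD7 at 2.17 (1.66 and 2.82), followed by PSMB4 at 1.72 (1.91 and 1.56), and 4 depleted, PSMC5 at 0.333 (0.330 and 0.336) and PSMD13 at 0.357 (0.231 and 0.551) being lowest. RNF, F-box and KLHL genes, which encode ligases and adaptors that choose what the proteasome degrades, had more enriched members than the 13.4% of all genes. RNF proteins had 16 of 41 enriched (39.0%) and 3 depleted, led by RNF149 at 8.05 (10.1 and 6.42) and RNF103 at 7.36 (9.57 and 5.67), with RNF166 at 0.291 (0.234 and 0.361) and RNF185 at 0.345 (0.308 and 0.386) lowest. F-box proteins had 10 of 31 enriched (32.3%) and none depleted, FBXO10 being highest at 22.6 (17.1 and 30.0), with FBXO4 at 0.509 (0.641 and 0.404) and FBXO25 at 0.539 (0.422 and 0.688) lowest. KLHL adaptors had 4 of 17 enriched and none depleted, from KLHL2 at 9.72 (13.4 and 7.05) and KLHL20 at 6.76 (6.66 and 6.85) to KLHL23 at 0.892 (0.960 and 0.829) and KLHL36 at 0.680 (0.521 and 0.889). Ubiquitin specific proteases had 8 of 30 enriched and 1 depleted, with USP12 at 10.6 (7.71 and 14.6) and USP31 at 5.37 (5.34 and 5.40) highest and USP34 at 0.483 (0.378 and 0.618) and USP18 lowest.

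The conjugating enzymes had 2 of 28 enriched, UBE2W at 9.16 (8.16 and 10.3) and UBE2Z at 2.33 (2.58 and 2.10). The 2 UBE2Z probes gave 3.17 and 1.71. Of the 28, 5 were depleted, UBE2J1 at 0.308 (0.282 and 0.337) and UBE2L6 being lowest. TRIM proteins had 1 of 27 enriched (3.70%, against 13.4% of all genes) and 2 depleted, TRIM36 at 7.17 (11.7 and 4.38), then TRIM39 at 1.78 (1.64 and 1.93), with TRIM25 at 0.361 (0.265 and 0.492) and TRIM27 at 0.376 (0.310 and 0.456) lowest. Chaperones ranged from DNAJB9 and DNAJC27 at 11.4 (10.6 and 12.3) to HSPA4L at 0.398 (0.343 and 0.462) and DNAJC2 at 0.492 (0.502 and 0.481), with 6 of 55 enriched (10.9%) and 3 depleted.

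Antigen presentation genes were low as a class. None of 23 was enriched, 3 were depleted and 3 lay above the median of all genes, with a median of 0.655 (0.573 and 0.725). CD74, the invariant chain, had log2 signals of 11.17 and 10.47 in the total channels and 9.82 and 9.26 in the IP channels, an IP/T of 0.412 (0.267 and 0.637), and HLA-DRB3 0.451 (0.293 and 0.694), while B2M, the light chain of class I, and the class II activator CIITA at 1.20 (1.38 and 1.05) were highest. HLA genes are near-identical, so single members are uncertain. Genes of endoplasmic reticulum translocation had 1 enriched, SRPRA at 2.69 (2.75 and 2.63), followed by SEC11C at 1.60 (1.5 and 1.71), and 1 depleted of 28, SRP68 at 0.301 (0.268 and 0.339), with SSR2 next at 0.502 (0.449 and 0.560). RAB GTPases had 9 of 30 enriched (30.0%, against 13.4% of all genes) and 1 depleted, RAB12 at 24.1 (20.5 and 28.4) and RAB23 at 7.41 (5.48 and 10.0) being highest and RAB27A at 0.446 (0.686 and 0.290) and RAB24 at 0.624 (0.489 and 0.796) lowest.

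Solute carriers had 25 of 122 enriched (20.5%, against 13.4% of all genes) and 8 depleted (6.56%, against 7.22%), led by SLC16A6 at 8.69 (12.2 and 6.17) and SLC19A2, the thiamine transporter, at 7.91 (12.7 and 4.93), with SLC25A11 at 0.326 (0.203 and 0.525) and SLC43A3 at 0.333 (0.294 and 0.376) lowest. Tubulins and actins held no enriched gene of 18, from TUBB4A at 0.358 (0.297 and 0.430) and TUBA1A at 0.408 (0.319 and 0.522) to TUBB4B at 1.43 (1.38 and 1.48) and TUBA8 at 1.52 (1.29 and 1.81). Histone genes, most of whose transcripts lack a poly(A) tail, were close to the total RNA, with 2 of 54 enriched, H2AC16 at 2.41 (2.44 and 2.38) and H2AZ2 at 2.01 (2.23 and 1.81), none depleted and a median of 0.988 (0.872 and 1.09), with orientations on either side of 1. The lowest were H2AC21 at 0.621 (0.615 and 0.628) and H2BC14 at 0.639 (0.511 and 0.798).

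RNA-binding proteins were spread by group. Regulators that bind 3'UTRs had 13 of 34 enriched (38.2%, against 13.4% of all genes) and 1 depleted, with a median of 1.41 (1.63 and 1.24), BTG2 and CPEB1 being highest and FXR1 at 0.455 (0.432 and 0.479) and the deadenylase subunit CNOT3 at 0.511 (0.340 and 0.768) lowest. Splicing factors had 2 enriched, SNRPF at 2.55 (2.94 and 2.21) and LSM8 at 2.24 (2.67 and 1.88), and 4 depleted of 50, SNRPN at 0.345 (0.327 and 0.363) and LSM10 at 0.361 (0.274 and 0.475) being lowest. HNRNP genes held none past 2-fold either way among 17, from HNRNPA2B1 at 0.601 (0.483 and 0.749) and HNRNPC at 0.613 (0.615 and 0.610) to HNRNPM at 1.58 (1.84 and 1.36). DDX and DHX helicases had DHX33 at 2.98 (3.38 and 2.63) and DDX3X at 2.71 (2.52 and 2.93) enriched and 3 of 39 depleted, with DDX49 at 0.444 (0.308 and 0.640) next to DDX56. The nuclear noncoding RNA MALAT1 had 1.12 (0.797 and 1.58), and of the small nucleolar RNA host genes SNHG1 had 1.27 (1.39 and 1.17), SNHG11 0.638 (0.570 and 0.714) and GAS5 0.612 (0.687 and 0.545), with none of the 7 noncoding RNAs measured past 2-fold.

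The miR-155-ST486 cells gave a separate pair of IP and total RNA, on 2 other arrays, for the same genes. Of the 1063 genes enriched in EV-ST486, 930 were also enriched there, which is 87.5% of the EV list and 85.1% of the 1093 genes enriched in miR-155-ST486. Of the 572 depleted genes 360 were depleted again, 62.9% of the EV list and 67.7% of the other. The log2 IP/T ratios of both cell populations correlated with r = 0.949 across genes, which share array design and normalization and are not independent. CD69 had 58.5, DNAJB9 43.4 and BTG2 38.3 in miR-155-ST486, and DDX56 0.290 and KARS1 0.268. The class medians were 3.62 for immediate early genes, 1.29 for zinc finger proteins, 0.639 for cytosolic ribosomal proteins and 3.05 for miR-17/20a targets.

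Known miR-155 targets, in cells without added miR-155, had 9 of 28 enriched (32.1%, against 13.4% of all genes) and 1 depleted (3.57%, against 7.22%), with a median IP/T of 1.33 (1.36 and 1.16), against 1.79 in miR-155-ST486. SOCS1, also a miR-19 and miR-30 target, and CEBPB, at 10.0 (8.97 and 11.2), were already enriched in EV cells, and with miR-155 they had 18.3 and 10.2. BACH1, a repressor of antioxidant genes, had 5.79 (5.93 and 5.65) in EV and 14.5 in miR-155 cells, and TAB2 2.73 and 7.13. DET1, a ubiquitin ligase subunit named after its values were seen, had 1.39 (1.64 and 1.18) and 17.51. WEE1 had 6.84 and 10.49, and the chromatin organizer SATB1 3.13 (3.31 and 2.96) and 2.89. FOXO3 was lowest, at 0.427 (0.258 and 0.708) in EV cells, and ZNF652 had 0.573 (0.873 and 0.377). The 15 miR-155 targets in no other list had a median of 1.27 (1.36 and 0.972) in EV cells, with the orientations on either side of 1, and 2.21 with miR-155.

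**Figure D5:**
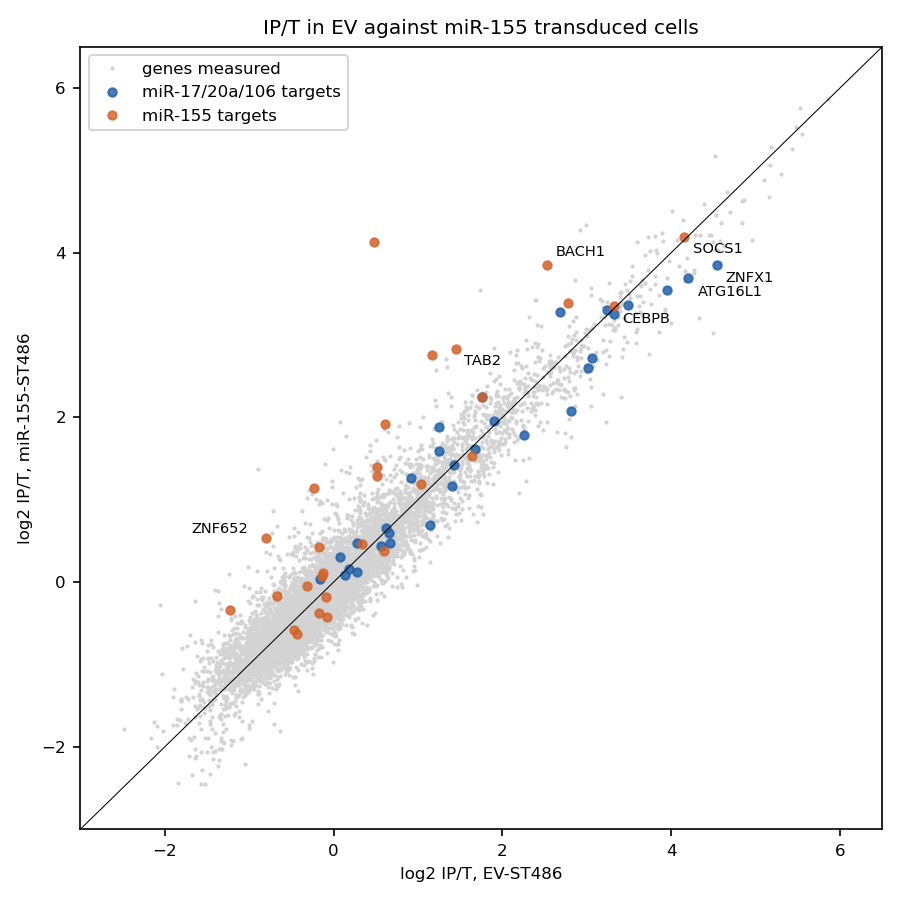
Log2 IP/T of the 7925 genes (grey points) in EV-ST486 (x axis) and miR-155-ST486 (y axis), with the known targets of miR-17/20a in blue and of miR-155 in orange. The line marks equal values. The blue points follow the line, with a median IP/T of 2.67 and 3.05, and several orange ones, BACH1 and TAB2 among them, lie above it.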

How the data were processed

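RNA of the IP and total fractions was labelled with Cy3 and Cy5 and hybridized to 4 two-colour Agilent 44k arrays. The authors read spot intensities with Agilent Feature Extraction 10.5.1.1, and the deposited value table holds log2 values of 14453 probes that the authors quantile normalized in GeneSpring after filters on detection and on differences between labellings. Each scanner file is deposited under both channels and was used once. The scanner intensities served for detection and alternatives. Of the values, 99.9% lay within 0.05 log2 units of those rebuilt from the scanner files.

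IP/T was the mean log2 value of both IP labellings minus that of both total labellings, averaged over the probes of a gene. Probes were named by RefSeq accession (7925 genes, sex-specific genes left out), and those without a match were used only in probe counts. A gene counted as enriched at IP/T of at least 2 and as depleted at most 0.5. With 1 RNA sample per fraction no test was run and no p is given. Array number limits the precision.

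The 47 gene classes and 22 miRNA target lists were written from general knowledge, and members, lists and rules were chosen with earlier results of these data known. Genes named are the 12 highest and 12 lowest past 2-fold on every probe in both orientations and detected in all EV channels, the 2 highest and 2 lowest of each class, targets past 2-fold in both orientations with the 2 lowest of each list, and all members of the silencing machinery, host transcripts, B cell markers and controls. Others are named where the text says so or to show a range, and the values of some genes are not reported here. Alternatives covered background correction and normalization (normexp, loess), detection, dye orientation, limits and probe choice. Python 3.11.15, pandas 2.3.3, numpy 2.4.6, R 4.3.3 and limma 3.58.1 were used, and the scripts were tested on simulated data.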

Additional observations from a re-analysis of the deposited data

Results flagged for a closer look

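Several genes and 1 list lay on opposite sides of a ratio of 1 in the empty vector and the miR-155 cells in both labelling orientations, with 1 pair of RNA samples each, and the difference between the cells was not tested for any of them. The log2 IP/T of ZNF652, a zinc finger gene and known miR-155 target, was -0.80 with the empty vector and 0.54 with miR-155. BMPR2, a BMP receptor whose EV IP signal was not well above background, had -0.73 and 0.60. H2BC14, a histone gene, had -0.65 and 0.28, CCND3, cyclin D3, -0.27 and 0.43, and SMAD2, which carries TGF-beta signals, -0.17 and 0.42. PIAS3, an inhibitor of STAT3, had -0.0814 and 0.12. MYCBP2, a ubiquitin ligase, went the other way, with 0.28 and -0.11, as did the median of the known miR-124 targets, with 0.0937 and -0.0664. The values of PIAS3, MYCBP2 and the miR-124 list were smaller in size than the median difference between orientations over EV probes, 0.42. In both cell populations they also lay above the log2 median of all genes, -0.12 with the empty vector and -0.13 with miR-155. The genes are among those named above, and the share of all genes that changed sides was not counted.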

How the results depend on the processing

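With normexp and loess in place of the deposited values, 1023 probes and 617 genes were enriched and 311 probes and 78 genes depleted. At a limit of 1.5-fold 2821 probes were higher and 3751 lower, and at 3-fold 1002 and 191. With 2-fold asked of each orientation 736 probes and 282 genes were depleted, and with total RNA in Cy3 alone 988 genes. Under loess the log2 medians were -0.31 for cytosolic ribosomal proteins, 0.20 for zinc finger proteins, 0.72 for cyclins, 1.22 for immediate early genes, 0.85 for miR-17/20a, 0.17 for miR-155 and -0.0745 for miR-122 targets, and those of cholesterol enzymes and ubiquitin conjugating enzymes changed sign, to 0.0249 and 0.0337. Over genes detected in all 4 EV channels the medians were 0.77 for cyclins, 1.43 for immediate early genes and 0.20 for miR-122 targets, the last with a changed sign. Without quantile normalization ribosomal proteins had -0.37. Rebuilt from the scanner files, or without the filter on labelling differences, cyclins had 0.87, and miR-155 targets 0.20 without that filter. With total RNA in Cy5 alone ribosomal proteins had -0.43, immediate early genes 2.02, miR-155 targets 0.21 and miR-122 targets -0.20. With total RNA in Cy3 alone cyclins had 0.88 and miR-17/20a targets 1.58. With the highest probe of each gene the medians were -0.37 for ribosomal proteins, 2.02 for immediate early genes and 1.58 for miR-17/20a targets. Over the miR-125b targets in no other list, a choice made after seeing the data, the log2 median was -0.0047, and over such genes of the miR-19a/b list it was 0.10. The cause of these changes was not tested. Of 217 named genes past 2-fold, 129 stayed so under loess and 188 to 216 under the other settings in which all of them had a value. Over genes detected in all 4 EV channels 177 of 178 stayed so, and with the rebuilt values 212 of 216. No paired analysis was possible because each fraction of each cell population was 1 RNA sample. A dim signal in 1 fraction limits the ratios of the genes named as such.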
